A study of Mus musculus with 12 samples.

Results

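The interleukin-1 (IL-1) family was followed through 8 of its genes in stromal cells sorted from mouse colon: the agonist cytokine genes Il1a, Il1b, Il18 and Il33, the antagonist gene Il1rn, and the receptor genes Il1r1, Il1rl1 and Il1rap. They were chosen by symbol from the 19049 genes of the count table, whose Ensembl identifiers were matched to symbols through GENCODE M21. All 8 were listed, and all 8 passed the filter on low counts that left 18727 genes in the tests. IL-1 family cytokines are alarm signals made by epithelial, stromal and myeloid cells. IL-1 alpha and IL-1 beta bind the receptor encoded by Il1r1, IL-33 binds ST2, the product of Il1rl1, and both receptors need the shared accessory chain encoded by Il1rap before they signal through the adaptor MyD88 to NF-kB. In the colon these cytokines are known from wound repair and colitis, where fibroblasts answer IL-1 by making chemokines, matrix-degrading enzymes and prostaglandin-producing enzymes.

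The study took colons of C57BL/6J mice, digested them with collagenase and dispase, and sorted live cells that stained for none of EPCAM, CD31, CD45 and TER119, so that epithelial, endothelial, immune and red cells were to be left out. Messenger RNA of each sort was sequenced as 1 library, with 4 libraries in each of 3 groups. Normal adult colon came from mice aged 8 weeks, P14 colon from growing mice at 2 weeks of age, and tumours from mice given azoxymethane, a carcinogen, and dextran sodium sulfate, an agent that injures the colonic lining (AOM/DSS). The tumour mice were 12, 13, 14 and 14 weeks old, so age and tumour cannot be told apart in the comparison with normal adult colon. The labels name no engineered allele in any group.

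Library totals ran from 15449444 to 38799033 counts, and the shallowest library, tumour replicate 4, had 9.14% of the listed genes at 0 against 0.383% to 1.4% in the other libraries. The labels give 2 male and 2 female mice for each group, but Xist, which is transcribed from the inactive X chromosome of females, was above 1 CPM (a count scaled to the total of its library) in 2 normal adult, 2 P14 and all 4 tumour libraries. Members were therefore also fitted in those 8 libraries alone. Fibroblast markers summed to between 11074 and 95052 CPM over the 12 libraries, and the cells were labelled as stroma. Columnar epithelial markers were nevertheless present in every library, at 5775 to 12289 CPM in normal adult libraries, 392 to 2498 CPM in P14 libraries and 1428 to 5059 CPM in tumour libraries. The summed level of 10 squamous epithelial markers was 74.8 to 515 CPM in normal adult, 85.8 to 202 CPM in P14 and 5443 to 15159.6 CPM in tumour libraries. Fewer cells of a type and less RNA per cell cannot be told apart in such bulk samples.

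Levels of different genes were compared per length, as RPKM (CPM per kilobase of exon). Il18 had the highest level in normal adult stroma, at 68.5 ± 23.8 RPKM (SD, n = 4), and was followed by Il33 at 29.8 ± 3.3 RPKM, with no overlap between their libraries. Il1rn at 13.1 ± 4.35 RPKM, Il1b at 9.93 ± 0.642 RPKM and Il1r1 at 8.49 ± 1.01 RPKM came next, and neighbours in that order overlapped. Il1rap at 2.01 ± 0.302 RPKM and Il1rl1 at 1.73 ± 0.539 RPKM also overlapped, and Il1a was lowest at 0.765 ± 0.0796 RPKM. The order was different in P14 stroma, where Il33 led at 19.6 ± 9.38 RPKM, ahead of Il1r1 at 12.4 ± 3.53 RPKM and Il18 at 9.04 ± 5.82 RPKM. Il1rl1 at 5.23 RPKM (2.4 to 9.95), Il1rap at 4.9 ± 0.385 RPKM, Il1b at 2.2 ± 2.33 RPKM and Il1rn at 2.19 ± 2.53 RPKM followed, and only Il1a, at 0.265 ± 0.158 RPKM, lay clear of its neighbour. In tumours Il1b had the highest mean, 33.9 ± 59.8 RPKM, but its libraries spanned 0.588 to 123 RPKM. Il33 at 28.4 ± 18.2 RPKM, Il1rl1 at 21.8 ± 19.6 RPKM, Il1r1 at 19.8 ± 3.15 RPKM, Il18 at 19 ± 9.43 RPKM, Il1rn at 14.5 ± 9.24 RPKM and Il1a at 6.2 ± 2.65 RPKM each overlapped the gene before it. Il1rap was lowest in tumours, at 2.06 ± 0.355 RPKM, with no library in the range of Il1a.

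**Figure D1:**
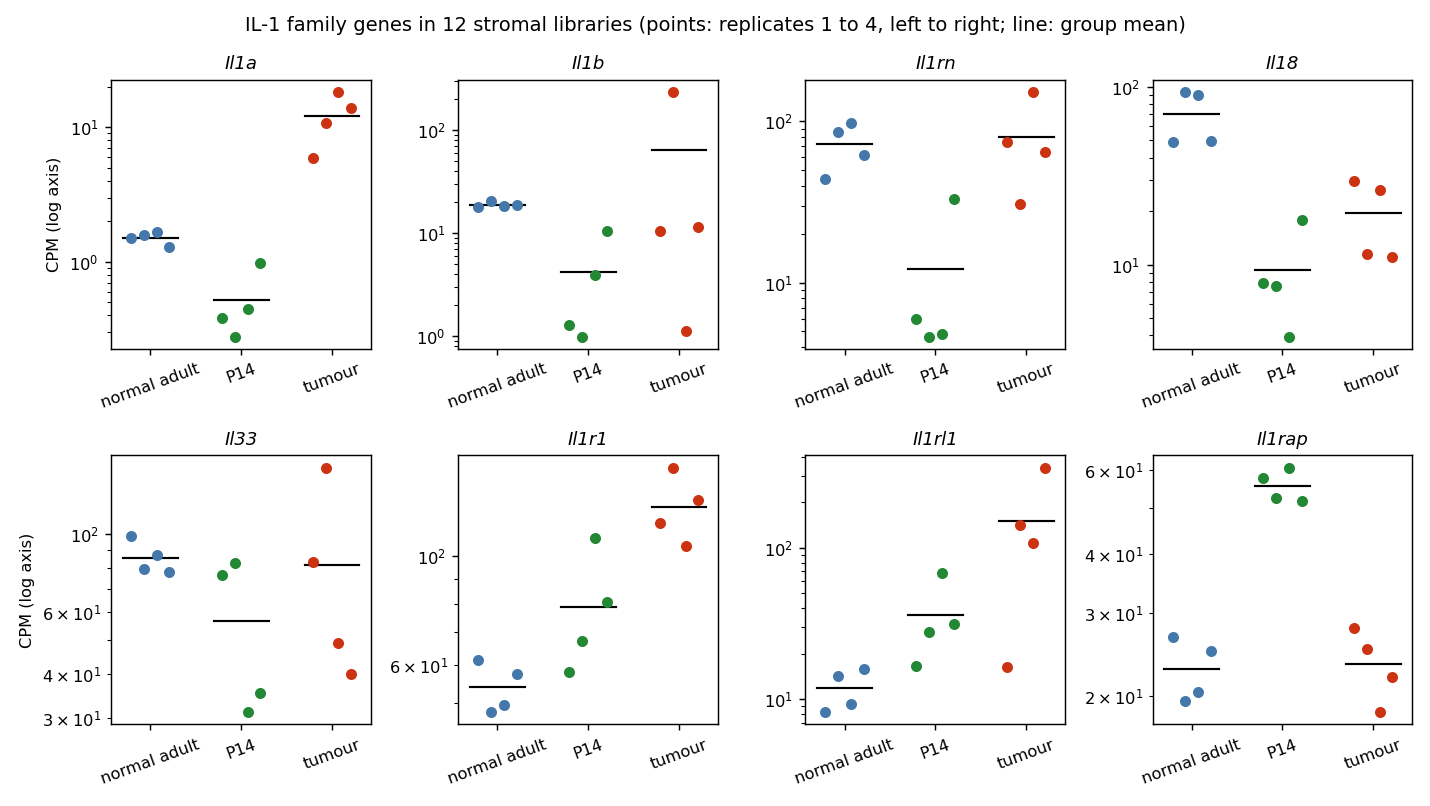
Level of each of the 8 genes in CPM on a log axis, with 1 point per library (replicates 1 to 4 of each group from left to right) and a line at the group mean. Il1a lies highest in the 4 tumour libraries (5.89 to 18.3 CPM), Il1rap in the 4 P14 libraries (51.5 to 60.7 CPM) and Il18 in the 4 normal adult libraries (49.1 to 93.5 CPM).

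Expression was compared between groups with edgeR's quasi-likelihood test, with Benjamini-Hochberg adjustment over the 18727 genes and an adjusted p under 0.05 as the threshold for a call. In P14 against normal adult stroma, 2 of the 8 members rose (Il1r1 and Il1rap) and 3 fell (Il1a, Il1rn and Il18), against 14.9% of all tested genes called higher and 16.0% called lower. In tumour against normal adult stroma, 3 rose (Il1a, Il1r1 and Il1rl1) and 1 fell (Il18), where 10.6% of all genes were called higher and 8.29% lower. In tumour against P14 stroma, 5 rose (Il1a, Il1b, Il1rn, Il1r1 and Il1rl1) and 1 fell (Il1rap), where 19.7% of all genes were called higher and 17.3% lower. The median log2 fold change of the 8 members was -1.06, 0.69 and 1.57 in the 3 comparisons, against 0, 0 and 0.05 over all tested genes. Any 2 of these comparisons share a group of libraries, so a gene's values in them are not independent of each other. The fit to the 8 libraries with Xist above 1 CPM called 23, 644 and 1999 genes in the 3 comparisons. With all 12 libraries the counts were 5789, 3545 and 6930. A member not called in the smaller fit is to be read beside those counts.

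**Figure D2:**
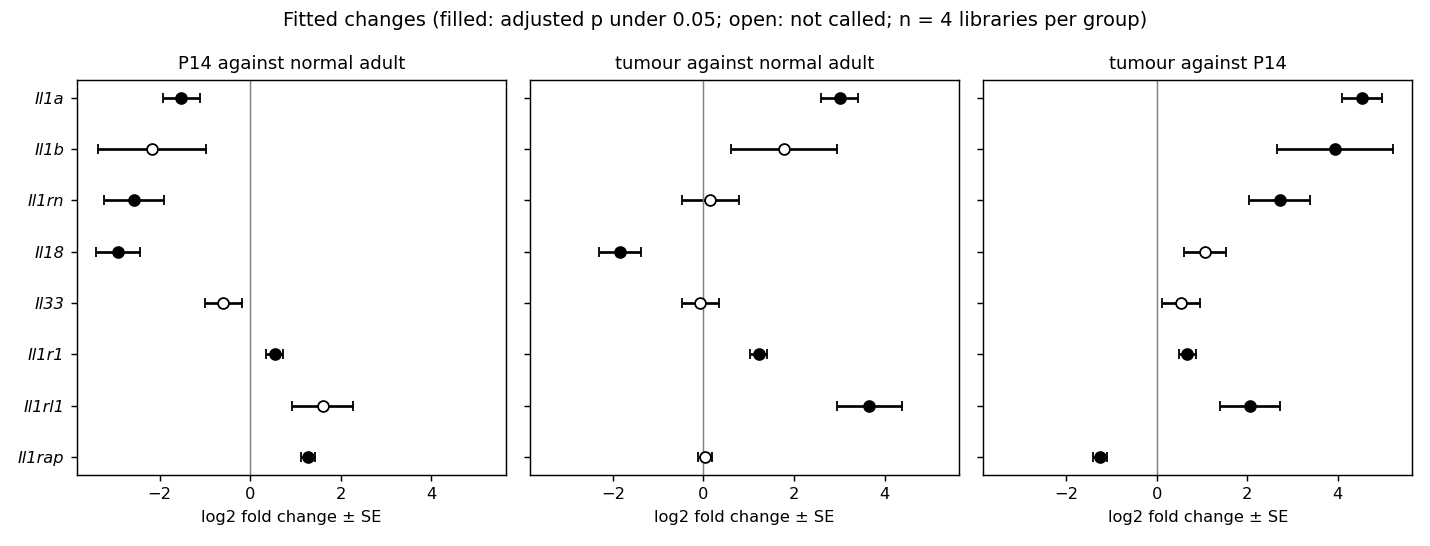
Fitted log2 fold change with its standard error for each member in the 3 comparisons, with filled points for an adjusted p under 0.05 and open points for genes not called (n = 4 libraries per group). Il1a lies to the left of 0 in P14 against normal adult (-1.52) and to the right in tumour against normal adult (3.01), while Il1rap changed in the comparisons that involve P14 (1.28 and -1.25) and stood at 0.03 in tumour against normal adult.

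Il1a encodes IL-1 alpha, an alarmin that is active without cleavage and is released by damaged cells. It lies on chromosome 2 (GRCm38, chr2:129299610-129309972, minus strand; ENSMUSG00000027399). The 4 normal adult libraries held 1.51, 1.59, 1.66 and 1.29 CPM of Il1a. The P14 libraries held 0.385, 0.279, 0.449 and 0.977 CPM, from only 14, 9, 13 and 35 counts. The tumour libraries held 5.89, 10.8, 18.3 and 13.9 CPM, from 131, 302, 408 and 195 counts. The 3 groups did not overlap, with P14 lowest and tumour highest.

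Il1a fell in P14 against normal adult by 1.52 ± 0.41 (SE) on the log2 scale (2.86-fold lower, adjusted p = 0.0151, edgeR). It rose in tumours by 3.01 ± 0.41 against normal adult (8.08-fold, adjusted p = 0.000471) and by 4.53 ± 0.44 against P14 (23.1-fold, adjusted p = 2.71e-05). In the 8 libraries with Xist above 1 CPM the tumour rise over normal adult was 3.04 (adjusted p = 0.0294), and the P14 difference was -1.11 and was not called (adjusted p = 0.382). The Il1a libraries with the highest level were also those with high squamous epithelial markers, and the part of those cells in the tumour rise was not tested. Within the tumour group the order did not match, since tumour replicate 4 had the highest squamous sum, 15159.6 CPM, and replicate 3, with the lowest at 5443 CPM, had the highest Il1a. A predicted gene on the other strand, Gm14023, overlaps Il1a and held 119 counts over all libraries against 1281 for Il1a.

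Promoter sequences were taken from RefSeq (GRCm38.p6) as the 250 bases before each annotated start, which gave 13 windows for the 8 members. They were searched on both strands for the AP-1 motif TGANTCA, the GATA motif AGATAA and the NF-kB motif, because AP-1 and NF-kB act downstream of IL-1 receptors and GATA factors drive Il1rl1 in type 2 immune cells. TGANTCA was in 2 of the 13 member windows and in 6.749% of the 32851 windows of all genes, the GATA motif in 2 of 13 and in 9.988%, and the NF-kB motif in 1 of 13, the second start of Il1r1, and in 3.899%. The windows of Il1a and of the first start of Il1rn are shown because they hold the 2 AP-1 matches, one in a gene that rose in tumours against both other groups and one in a gene that rose against P14 only. Capitals mark the match, which lies 12 to 6 bases before the start in Il1a and 141 to 135 bases before it in Il1rn (chr2:129309973-129310222, minus strand, and chr2:24336610-24336859, plus strand). A match describes the letters in the window and not a bound site.
Il1a: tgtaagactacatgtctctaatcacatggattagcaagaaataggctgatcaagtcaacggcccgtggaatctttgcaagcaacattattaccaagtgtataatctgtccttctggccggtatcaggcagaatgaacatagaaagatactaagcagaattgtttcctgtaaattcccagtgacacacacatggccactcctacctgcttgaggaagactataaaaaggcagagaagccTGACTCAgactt
Il1rn start 1: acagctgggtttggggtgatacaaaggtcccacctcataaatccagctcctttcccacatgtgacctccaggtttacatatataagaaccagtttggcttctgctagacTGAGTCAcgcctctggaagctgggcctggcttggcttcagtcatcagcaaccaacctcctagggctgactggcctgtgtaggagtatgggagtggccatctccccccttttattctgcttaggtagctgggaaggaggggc

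Il1b encodes IL-1 beta, which is made chiefly by myeloid cells as an inactive precursor and released after cleavage by caspase-1. It lies next to Il1a (chr2:129364570-129371139, minus strand; ENSMUSG00000027398). Normal adult libraries held 17.8, 20.6, 18.4 and 18.9 CPM of Il1b, the narrowest spread of any member in any group by coefficient of variation (6.47%). P14 libraries held 1.29, 0.990, 3.94 and 10.6 CPM. Tumour libraries held 10.5, 235, 1.12 and 11.5 CPM, so that tumour replicate 2 stood far above the other 3 and replicate 3 fell among the lowest P14 values. P14 libraries all lay below normal adult ones, whereas the tumour group spanned both.

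The P14 difference of Il1b, -2.17 ± 1.2 on the log2 scale against normal adult, was not called (adjusted p = 0.192, edgeR). The tumour difference against normal adult was 1.77 ± 1.17 and was not called either (adjusted p = 0.317), and it was -1.29 (adjusted p = 0.279) without tumour replicate 2. Against P14, Il1b rose in tumours by 3.94 ± 1.28 (15.4-fold, adjusted p = 0.0292), but the difference was 0.83 (adjusted p = 0.429) without tumour replicate 2. That call was also lost without P14 replicate 1, 2 or 3 (adjusted p = 0.0771, 0.0755 and 0.0673), and the P14 difference against normal adult was called without tumour replicate 2 (-2.12, adjusted p = 0.0479). Without P14 replicate 4, which had the highest P14 level, the differences were -3.20 (adjusted p = 0.0997) against normal adult and 4.97 (adjusted p = 0.0212) for tumour against P14. Tumour replicate 2 also had the highest sum of leukocyte markers, 108 CPM against 9.92 to 14.9 CPM in the other tumours, and of neutrophil markers, 857 CPM against 52.3 to 99.7 CPM, with 7 of 8 neutrophil markers listed. Retnlg, a neutrophil gene, was at 14.9 CPM in that library and at 0.315, 0.0897 and 0 CPM in tumour replicates 1, 3 and 4. Csf3r and Cxcr2 were also highest there, at 9.56 and 7.48 CPM. Ly6g went the other way, at 9.31 CPM against 20.7, 21.9 and 15.4 CPM in tumour replicates 1, 3 and 4. Mmp9 was at 7.66 CPM against 3.33, 12.6 and 10.5 CPM. The part of leukocytes and neutrophils in the Il1b values was not tested. Across the 12 libraries, after the group means were removed, log2 Il1b had a Pearson r of 0.93 with the leukocyte sum, a description over libraries that share their depth and preparation. The r was 0.85 with the macrophage sum and 0.83 with the neutrophil sum. With the endothelial, fibroblast and lymphoid stroma sums it was 0.7, 0.69 and 0.67, so the likeness is not particular to leukocytes.

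Il1rn encodes the IL-1 receptor antagonist, which occupies the receptor without recruiting the accessory chain (chr2:24336853-24351494, plus strand; ENSMUSG00000026981). It held 43.8, 85.8, 97.6 and 62.1 CPM in the normal adult libraries. P14 libraries held 5.96, 4.64, 4.80 and 33.1 CPM, with replicate 4 far above the other 3 and still below every normal adult library. Tumour libraries held 74.4, 30.6, 152 and 64.3 CPM and overlapped both other groups, normal adult across its whole range and P14 through tumour replicate 2 alone. Counts per gene do not separate the secreted antagonist from the intracellular forms, which begin at other starts.

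Il1rn fell in P14 against normal adult by 2.57 ± 0.67 on the log2 scale (5.95-fold lower, adjusted p = 0.012, edgeR), and the difference was -3.81 (adjusted p = 0.000291) without P14 replicate 4. It rose in tumours against P14 by 2.72 ± 0.67 (6.6-fold, adjusted p = 0.00757), and by 3.96 (adjusted p = 0.000197) without that library. The tumour difference against normal adult, 0.15 ± 0.63, was not called (adjusted p = 0.896). In the 8 libraries with Xist above 1 CPM the P14 difference was -2.03 (adjusted p = 0.245) and that of tumour against P14 was 2.03 (adjusted p = 0.13), neither of them called. P14 replicate 4 also had the highest columnar epithelial sum of its group, 2498 CPM against 392 to 665 CPM. Within groups, log2 Il1rn had r = 0.95 with the columnar sum over the 12 libraries, and the part of epithelial cells in the Il1rn values was not tested.

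Il18 encodes IL-18, a cytokine made by gut epithelium and activated by caspase-1 (chr9:50554827-50581840, plus strand; ENSMUSG00000039217). Normal adult libraries held 49.1, 93.5, 90.2 and 49.5 CPM of Il18. P14 libraries held 7.86, 7.55, 3.94 and 17.9 CPM, and tumour libraries 29.4, 11.4, 26.4 and 11.1 CPM. Every normal adult library was above every other, and P14 and tumour overlapped only through P14 replicate 4.

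Il18 fell by 2.92 ± 0.48 on the log2 scale in P14 (7.56-fold lower, adjusted p = 0.00119, edgeR) and by 1.85 ± 0.46 in tumours (3.6-fold lower, adjusted p = 0.0154), both against normal adult. The difference of tumour against P14, 1.07 ± 0.46, was not called (adjusted p = 0.0826) and was called without P14 replicate 4 (1.60, adjusted p = 0.0126). In the 8 libraries with Xist above 1 CPM neither fall was called, at -2.44 (adjusted p = 0.114) and -1.84 (adjusted p = 0.0782). Normal adult replicates 2 and 3, with the highest Il18, also had the highest columnar epithelial sums, 12289 and 11275 CPM, against 5775 and 6383 CPM in replicates 1 and 4. Within groups log2 Il18 had r = 0.92 with the columnar sum and 0.82 with log2 Il1rn over the 12 libraries, and the part of epithelial cells in the Il18 falls was not tested. Bco2 and Tex12, on the other strand, overlap Il18 and held 1377 and 226 counts in all against 11026 for Il18.

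**Figure D3:**
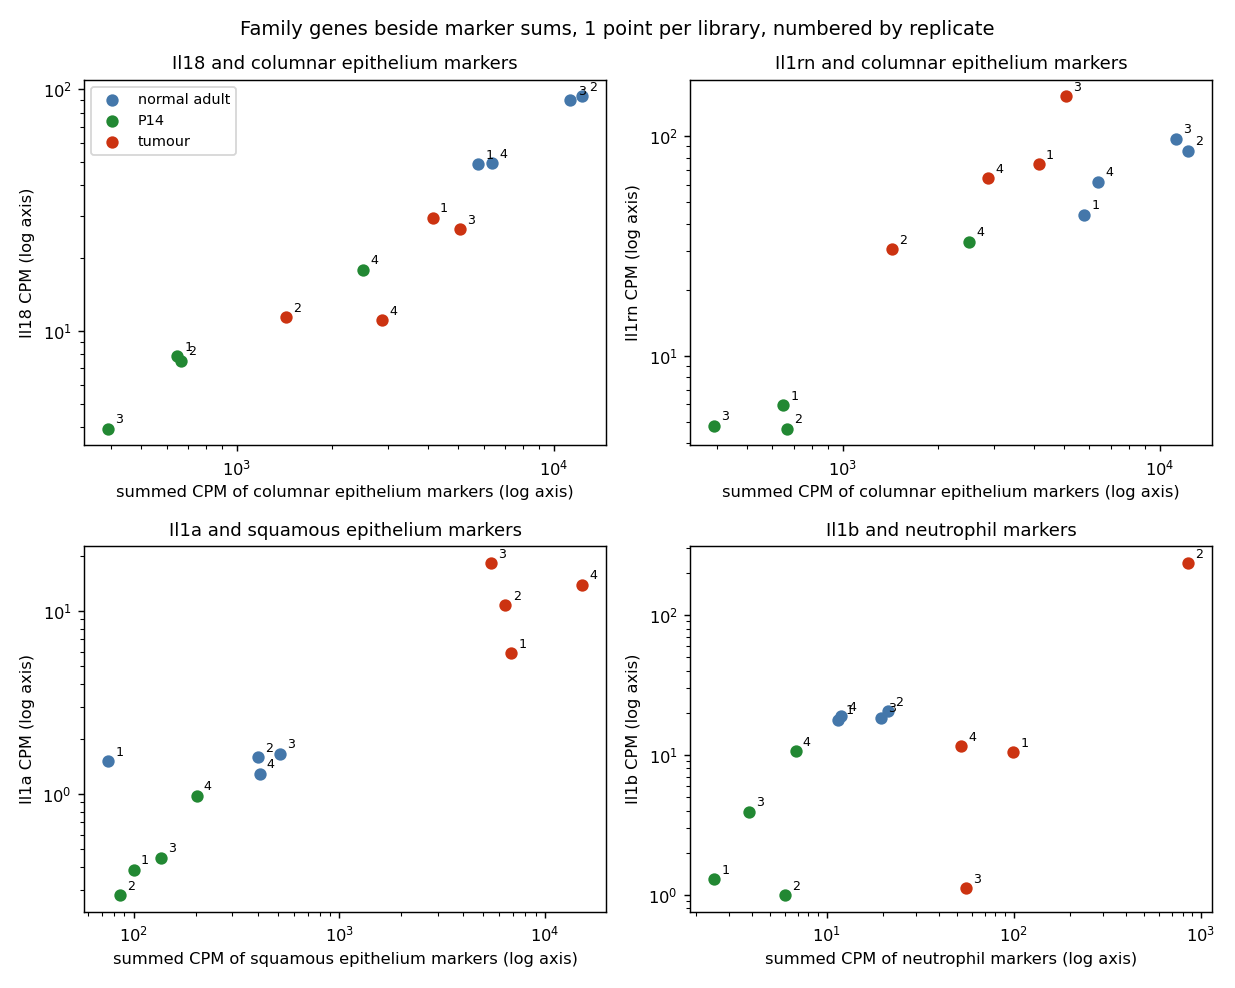
Il18 and Il1rn against the summed CPM of columnar epithelial markers, Il1a against squamous epithelial markers and Il1b against neutrophil markers, with 1 point per library, replicate numbers beside the points and log axes. P14 replicate 4 is high on both axes for Il1rn (33.1 CPM) and tumour replicate 2 for Il1b (235 CPM), while tumour replicate 3, with the highest Il1a (18.3 CPM), has the lowest squamous sum of the tumours.

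Il33 encodes IL-33, a nuclear alarmin that gut fibroblasts and pericytes store and release on damage (chr19:29925114-29960718, plus strand; ENSMUSG00000024810). It held 98.8, 79.7, 87.2 and 77.9 CPM in normal adult libraries. P14 libraries held 76.8, 82.8, 31.1 and 35.4 CPM, and tumour libraries 83.5, 155, 49.0 and 39.9 CPM. In the P14 and tumour groups the libraries numbered 3 and 4 were lower than those numbered 1 and 2, and all 3 groups overlapped. None of the 3 comparisons called Il33, with differences of -0.60 ± 0.41 in P14 against normal adult (adjusted p = 0.293, edgeR), -0.07 ± 0.41 in tumour against normal adult (adjusted p = 0.931) and 0.54 ± 0.41 in tumour against P14 (adjusted p = 0.325). Within groups log2 Il33 had r = 0.71 with the summed fibroblast markers over the 12 libraries, a value that rests on shared libraries. It also had r = 0.62 with the neutrophil sum, 0.53 with the leukocyte sum and 0.51 with that of lymphoid stroma, so the value is not particular to fibroblasts. Il33 was thus the member with the second-highest mean per length in normal adult stroma and the only one called in no comparison.

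Il1r1 encodes the signalling receptor for IL-1 alpha and IL-1 beta, expressed by many stromal cells (chr1:40225080-40317257, plus strand; ENSMUSG00000026072). Normal adult libraries held 61.4, 47.9, 49.5 and 57.3 CPM of Il1r1. P14 libraries held 58.0, 66.9, 109 and 80.6 CPM, and tumour libraries 117, 152, 105 and 130.4 CPM. Tumour libraries all exceeded the normal adult ones, P14 replicate 1 lay within the normal adult range, and P14 replicate 3 lay within the tumour range.

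Il1r1 rose in tumours by 1.22 ± 0.19 on the log2 scale against normal adult (2.34-fold, adjusted p = 0.00127, edgeR), and the value was 1.24 (adjusted p = 0.0294) in the 8 libraries with Xist above 1 CPM. It rose by 0.68 ± 0.19 against P14 (1.6-fold, adjusted p = 0.0152), a call that was lost without P14 replicate 2 (0.61, adjusted p = 0.052). The P14 rise over normal adult, 0.54 ± 0.19 (1.46-fold), lay at the threshold (adjusted p = 0.0481). It was lost when any 1 of 9 libraries was left out, and was 0.34 (adjusted p = 0.155) without P14 replicate 3. Within groups log2 Il1r1 had r = 0.81 with the sum of 10 genes of the response to tissue dissociation. It also had r = 0.77 with the endothelial sum and 0.5 with that of lymphoid stroma markers. The value is thus not particular to the dissociation genes. The dissociation sum was 4823 to 5815 CPM in normal adult, 6435 to 8033 CPM in P14 and 5093 to 6319.8 CPM in tumour libraries, and its part in the Il1r1 values was not tested. A transcript on the same strand, Gm38070, overlaps Il1r1 and held 1591 counts against 27607.

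Il1rl1 encodes ST2, the IL-33 receptor, which mast cells, type 2 lymphoid cells, regulatory T cells and some stromal cells carry, and which is also made as a shorter soluble form that captures IL-33 (chr1:40429570-40465415, plus strand; ENSMUSG00000026069). It had the widest range of the 3 receptor members. Normal adult libraries held 8.23, 14.3, 9.30 and 15.8 CPM of Il1rl1. P14 libraries held 16.5, 27.7, 68.6 and 31.4 CPM, and tumour libraries 16.4, 140.4, 107 and 338 CPM. P14 and tumour libraries all lay above normal adult, by a small margin in P14 replicate 1 and tumour replicate 1, and tumour replicate 1 was below every P14 library.

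Il1rl1 rose in tumours against normal adult by 3.66 ± 0.72 on the log2 scale (12.6-fold, adjusted p = 0.00437, edgeR), and by 2.88 (adjusted p = 0.0105) without tumour replicate 4. It rose against P14 by 2.06 ± 0.67 (4.17-fold, adjusted p = 0.0298), but the difference was 1.29 (adjusted p = 0.119) without tumour replicate 4, and the call was also lost without P14 replicate 1, 2 or 4 (adjusted p = 0.0814, 0.0779 and 0.0623). The P14 difference against normal adult, 1.60 ± 0.67, was not called (adjusted p = 0.0882) and was called without tumour replicate 1 (adjusted p = 0.0227). In the 8 libraries with Xist above 1 CPM the tumour difference was 3.58 against normal adult (adjusted p = 0.0994) and 2.65 against P14 (adjusted p = 0.119), and neither was called. Mast cell markers, 4 of 8 of them listed, summed to 0.818 to 3.21 CPM in normal adult, 0.805 to 12.8 CPM in P14 and 0 to 14 CPM in tumour libraries. Tumour replicate 4, with the highest Il1rl1, had 0 counts of all 4 listed mast cell markers. It was also the shallowest library, with 9.14% of the listed genes at 0. Of the markers of T cells and innate lymphoid cells, 4 of 8 were listed. They summed to 14.6 to 35.1 CPM in normal adult, 3.14 to 7.92 CPM in P14 and 8.16 to 33 CPM in tumour libraries. The part of mast cells and lymphoid cells in the Il1rl1 values was not tested.

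Il1rl1 has 2 annotated starts 10059 bases apart in RefSeq, and counts per gene separate neither the starts nor the soluble form from the membrane form. Both windows are shown because the gene rose in tumours and each holds 1 GATA match, AGATAA or its reverse complement, in capitals. The match lies 217 to 212 bases before the first start (chr1:40429320-40429569, plus strand) and 103 to 98 bases before the second (chr1:40439379-40439628, plus strand). With 9.988% of all windows holding the motif, a match in a window is not unusual.
Il1rl1 start 1: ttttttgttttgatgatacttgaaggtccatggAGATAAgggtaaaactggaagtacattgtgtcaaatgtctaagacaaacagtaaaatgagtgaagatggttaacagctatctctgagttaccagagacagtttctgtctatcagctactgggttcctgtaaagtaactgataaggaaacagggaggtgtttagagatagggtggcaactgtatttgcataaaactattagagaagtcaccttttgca
Il1rl1 start 2: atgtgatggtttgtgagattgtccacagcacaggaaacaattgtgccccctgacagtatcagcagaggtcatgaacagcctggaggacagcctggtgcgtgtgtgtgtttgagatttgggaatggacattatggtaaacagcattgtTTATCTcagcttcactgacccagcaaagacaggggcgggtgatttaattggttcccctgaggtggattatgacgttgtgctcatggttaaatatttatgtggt

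Il1rap encodes the accessory chain shared by the IL-1, IL-33 and IL-36 receptors (chr16:26581704-26730117, plus strand; ENSMUSG00000022514). Normal adult libraries held 26.6, 19.5, 20.4 and 24.9 CPM of Il1rap. P14 libraries held 57.8, 52.5, 60.7 and 51.5 CPM, and tumour libraries 27.9, 25.2, 18.5 and 22.0 CPM. The P14 libraries stood together well above the other 8, and normal adult and tumour overlapped over most of their range.

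Il1rap rose in P14 against normal adult by 1.28 ± 0.16 on the log2 scale (2.43-fold, adjusted p = 0.000266, edgeR) and fell in tumours against P14 by 1.25 ± 0.16 (2.38-fold lower, adjusted p = 0.000122). The tumour difference against normal adult was 0.03 ± 0.15 and was not called (adjusted p = 0.904). In the 8 libraries with Xist above 1 CPM the P14 difference was 1.27 and was not called (adjusted p = 0.0774), and the difference of tumour against P14 was -1.23 (adjusted p = 0.0112). Fibroblast markers were also highest in P14, at 72125 to 95052 CPM against 29165 to 37198 CPM in normal adult and 11074 to 31832 CPM in tumour libraries. Within groups log2 Il1rap had r = 0.68 with that sum, 0.71 with the sum of lymphoid stroma markers and 0.59 with that of pericyte markers. The value is thus not particular to fibroblasts, and the part of fibroblast content in the Il1rap values was not tested. Gene-level counts again do not separate the membrane chain from its soluble form.

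The balance between ligand and antagonist transcripts was followed as Il1rn RPKM over the summed RPKM of Il1a and Il1b. It was 0.783, 1.33, 1.68 and 1.06 in normal adult libraries, 1.24, 1.27, 0.378 and 0.991 in P14 libraries, and 1.58, 0.0429, 2.78 and 0.887 in tumour libraries. The 3 groups overlapped, and the lowest value was that of tumour replicate 2, the library with the highest Il1b. The ratio of Il1rl1 to Il33 RPKM was 0.0349, 0.0753, 0.0446 and 0.085 in normal adult, 0.0901, 0.14, 0.924 and 0.371 in P14 and 0.0823, 0.378, 0.918 and 3.55 in tumour libraries. Receptor transcript exceeded ligand transcript per length in tumour replicate 4 alone, and in tumour replicate 1 the ratio was within the normal adult range.

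A further 7 genes for receptors and binding proteins of the family were in the table, Il18bp among them. Of these, 2 rose and 1 fell in P14 against normal adult. In tumour against normal adult 4 rose and none fell, and in tumour against P14 3 rose and 1 fell. Over all tested genes, 14.9% were called higher and 16.0% lower in the first comparison, 10.6% and 8.29% in the second and 19.7% and 17.3% in the last, and with 7 genes the single falls are near those shares. Il1r2, the decoy receptor that binds IL-1 without signalling, held 4.42, 10.5, 7.1 and 7.8 CPM in the normal adult group, 6.46, 6.44, 5.49 and 6.89 CPM in the P14 group and 61.4, 54, 13.7 and 127 CPM in tumour libraries. All tumour libraries were above all others, and Il1r2 rose by 3.10 ± 0.51 on the log2 scale against normal adult (adjusted p = 0.00147, edgeR) and by 3.34 ± 0.51 against P14 (adjusted p = 0.000436). The P14 difference against normal adult, -0.24, was not called (adjusted p = 0.745). The RPKM ratio of Il1r2 to Il1r1 was 0.24 to 0.735 in normal adult, 0.167 to 0.371 in P14 and 0.435 to 3.24 in tumour libraries, where it was 1.75, 1.18, 0.435 and 3.24. Decoy transcript thus exceeded signalling receptor transcript per length in 3 of 4 tumour libraries and in none of the other 8.

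Il1rl2, the IL-36 receptor, rose in both other groups against normal adult. It held 17.8, 13.9, 14.5 and 16.9 CPM in normal adult libraries, 44, 37.6, 51 and 41.1 CPM in P14 and 58.1, 43.5, 30.8 and 57.5 CPM in tumour libraries. The rises were 1.46 ± 0.20 on the log2 scale in P14 (adjusted p = 0.000452, edgeR) and 1.59 ± 0.20 in tumours (adjusted p = 0.000299), while tumour and P14 differed by 0.13 ± 0.19 (adjusted p = 0.631). Sigirr, which encodes an inhibitory receptor abundant in gut epithelium, in P14 fell by 2.17 ± 0.53 (adjusted p = 0.00836), with a difference of -3.01 (adjusted p = 0.000453) without P14 replicate 4. Its tumour differences, -0.82 against normal adult (adjusted p = 0.285) and 1.35 against P14 (adjusted p = 0.0587), were not called, though the second was called without P14 replicate 4, tumour replicate 2 or tumour replicate 4. Il1rapl1, better known from neurons, rose in P14 by 2.14 ± 0.43 (adjusted p = 0.00297) and in tumours against P14 fell by 2.66 ± 0.44 (adjusted p = 0.000718). For the IL-18 receptor, the signalling chain gene Il18r1 was at or below 1.04 CPM in every library and was called in no comparison. Without tumour replicate 4, which had 0 counts of Il18r1, it was called in P14 against normal adult (-1.68, adjusted p = 0.00713) and in tumour against P14 (1.75, adjusted p = 0.00792). Il18rap, its accessory chain, rose in tumours by 2.02 ± 0.49 against normal adult (adjusted p = 0.0132), and Il18bp, the secreted IL-18 inhibitor, by 0.66 ± 0.18 (adjusted p = 0.0245). The Il18bp call was lost without normal adult replicate 1, 2 or 3 (adjusted p = 0.0653, 0.0692 and 0.0632). Against P14, Il18rap rose in tumours by 3.17 ± 0.52 (adjusted p = 0.000647) and Il18bp by 0.55 ± 0.18 (adjusted p = 0.0322), and the latter call was lost without P14 replicate 1, 2 or 4 or tumour replicate 4.

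**Figure D4:**
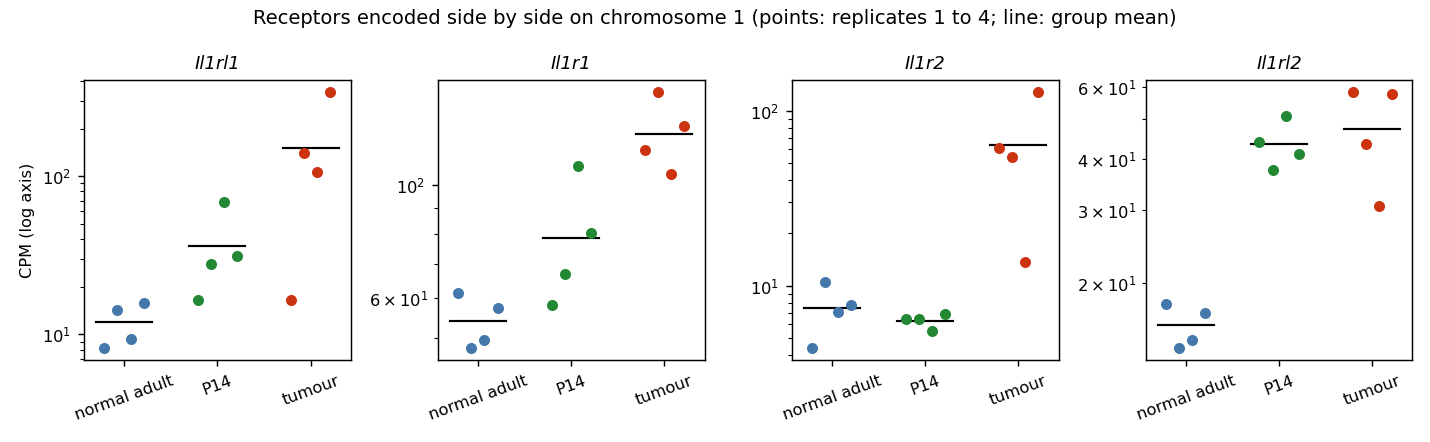
Level in CPM, on a log axis, of 4 receptor genes that lie side by side on chromosome 1, with 1 point per library and a line at the group mean. Il1rl2 is higher in P14 (37.6 to 51 CPM) and tumour (30.8 to 58.1 CPM) than in normal adult libraries (13.9 to 17.8 CPM), and Il1r2 is higher in tumours alone (13.7 to 127 CPM).

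Of 5 other ligand genes looked for, 2 were in the table. Il36g, which encodes the agonist IL-36 gamma and is known from stressed epithelium, had 0, 3, 2 and 4 counts in normal adult, 0, 4, 0 and 0 counts in P14 and 184, 526, 446 and 237 counts in tumour libraries. The tumour libraries were thus far above the others, and Il36g rose in tumours against both groups (adjusted p = 5.83e-05 and 1.73e-05, edgeR). Il36a, another agonist, had 0 counts in all 8 normal adult and P14 libraries and 4, 6, 21 and 16 counts in tumours, too few for the filter. Both ligands were detected in the libraries with high squamous epithelial markers, and the part of those cells was not tested.

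The inflammasome and processing genes, which sense danger and cleave IL-1 beta and IL-18, were lower in P14 stroma: 10 of 11 fell against normal adult, none rose, and their median log2 fold change was -2.17 against 0 over all genes. In that comparison 16.0% of all tested genes were called lower and 14.9% higher. Casp1, the protease that cleaves both cytokines, held 79.4, 146, 146 and 81.4 CPM in normal adult libraries, 11.6, 10.7, 5.53 and 26.8 CPM in P14 and 54, 63.2, 46.2 and 55.9 CPM in tumour libraries. It fell by 3.05 ± 0.41 on the log2 scale in P14 (adjusted p = 0.000427, edgeR) and was higher in tumours than in P14 by 2.00 ± 0.39 (adjusted p = 0.00203), while the tumour difference against normal adult, -1.05, was not called (adjusted p = 0.0754). Gsdmd, whose product forms the pore through which mature IL-1 beta leaves, fell in P14 by 0.89 ± 0.12 (adjusted p = 0.000456), and Casp8 by 1.32 ± 0.22 (adjusted p = 0.00116). Only Casp4, the sensor of bacterial lipopolysaccharide inside cells, was not called in P14. In tumours against normal adult 2 of the 11 fell, where 8.29% of all tested genes were called lower. They were Nlrp6, by 2.52 ± 0.59 (adjusted p = 0.0111, and -3.37 without tumour replicate 1), and Nlrp1b, by 1.63 ± 0.48 (adjusted p = 0.0323). Nlrp1b differed by -2.33 without tumour replicate 1, and its call was lost when normal adult replicate 2, 3 or 4 or tumour replicate 2, 3 or 4 was left out. Against P14, 8 of 11 rose in tumours and none fell, where 19.7% of all tested genes were called higher and 17.3% lower. Capn1, which trims IL-1 alpha, rose in that comparison by 1.32 ± 0.17 (adjusted p = 0.000131) and Gsdmd by 0.67 ± 0.12 (adjusted p = 0.00123). Columnar epithelial markers were lower in every P14 library (392 to 2498 CPM) than in any normal adult one (5775 to 12289 CPM), as were macrophage markers (15.3 to 31.4 against 97.8 to 129 CPM). In tumour libraries the columnar and macrophage sums were 1428 to 5059 and 14.9 to 30.1 CPM, also below every normal adult library. Of the 11 genes, 2 fell in tumours against normal adult, against 10 in P14. Gut epithelium and macrophages are known to express many of these genes, and the part of those cells was not tested.

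Of 17 genes that carry the signal inside the cell, 2 rose and 5 fell in P14 against normal adult (median 0.07), 1 rose in tumour against normal adult (median 0.12), and 3 rose and 1 fell in tumour against P14 (median 0.2). The rises are close to or below the shares of all tested genes called higher in these comparisons (14.9%, 10.6% and 19.7%). The 5 falls in P14 are a larger share than the 16.0% of all tested genes called lower there. The 1 fall in tumour against P14 is a smaller share than the 17.3% called lower. Myd88, the adaptor of the IL-1 and IL-33 receptors, rose in P14 by 0.69 ± 0.17 on the log2 scale (adjusted p = 0.00808, edgeR) and was lower in tumours than in P14 by 0.60 ± 0.17 (adjusted p = 0.0141). Irak2, a kinase of the receptor complex, fell in P14 by 0.99 ± 0.24 (adjusted p = 0.00867), while Map3k7, the kinase TAK1, rose there by 0.40 ± 0.10 (adjusted p = 0.00845). Irak3, an inhibitor of the pathway, was higher in tumours than in P14 by 0.96 ± 0.23 (adjusted p = 0.00607), and Ikbkb, the kinase that releases NF-kB, was higher in tumours than in P14 by 1.23 ± 0.22 (adjusted p = 0.00115). The single tumour rise over normal adult was that of Map3k7 (0.30 ± 0.10, adjusted p = 0.0448), and it was lost in 11 of 12 fits that left out 1 library.

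Of 24 NF-kB feedback genes and genes that fibroblasts are known to induce on IL-1 treatment, 20 rose and none fell in tumours against normal adult, with a median log2 fold change of 1.61 against 0 over all genes. In that comparison 10.6% of all tested genes were called higher and 8.29% lower. Saa3, an acute-phase protein gene, held 0.833, 1.11, 1.87 and 1.57 CPM in normal adult libraries, 1.62, 1.67, 2.35 and 2.06 CPM in P14 and 171, 656, 94 and 459 CPM in tumour libraries, and rose by 8.00 ± 0.64 on the log2 scale against normal adult (adjusted p = 1.88e-05, edgeR). Cxcl5, a neutrophil-attracting chemokine gene, rose by 5.16 ± 0.56 (adjusted p = 0.000133), and Ccl20, a chemokine gene for lymphocytes and dendritic cells, by 4.38 ± 0.56 (adjusted p = 0.000356). The 4 genes not called in tumours were Ptgs2, Ccl7, Ptges and Tnfaip6. In P14 against normal adult, 5 rose and 1 fell (median 0.45), where 14.9% of all tested genes were called higher and 16.0% lower. With 24 genes, the 5 rises are near the share called higher, and the 1 fall is below the share called lower. Ptgs2, the inducible cyclooxygenase, rose in P14 by 1.95 ± 0.43 (adjusted p = 0.00507), with P14 libraries at 349, 383, 1192 and 657 CPM against 201, 140.3, 139 and 187 CPM in normal adult. Icam1, an adhesion molecule gene, rose in P14 by 1.10 ± 0.26 (adjusted p = 0.00781). Nfkbiz, an NF-kB cofactor induced by IL-1, rose by 0.98 ± 0.13 in P14 (adjusted p = 0.000479) and by 1.04 ± 0.13 in tumours (adjusted p = 0.000369), both against normal adult. Against P14, 16 of the 24 rose in tumours and none fell, with a median of 1.36, where 19.7% of all tested genes were called higher and 17.3% lower. Saa3 rose by 7.48 ± 0.62 (adjusted p = 1.27e-05) and Ccl20 by 5.52 ± 0.60 (adjusted p = 4.98e-05, and by 6.22 without P14 replicate 4), with Mmp13, a collagenase gene, up by 6.62 ± 0.77 (adjusted p = 7.84e-05), and by 5.94 without tumour replicate 4. Many signals besides IL-1 induce these genes, and which signal acted was not tested. Beside these rises, neutrophil markers were 52.3 to 857 CPM in tumours against 11.5 to 21.2 CPM in normal adult libraries, and the squamous sum was also higher, without a test of their part. The neutrophil receptor genes Csf3r and Cxcr2 were at 9.56 and 7.48 CPM in tumour replicate 2 but at most 0.643 and 0.135 CPM in the other 3 tumours, whose sums came mainly from S100a8, S100a9, Ly6g and Mmp9.

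**Figure D5:**
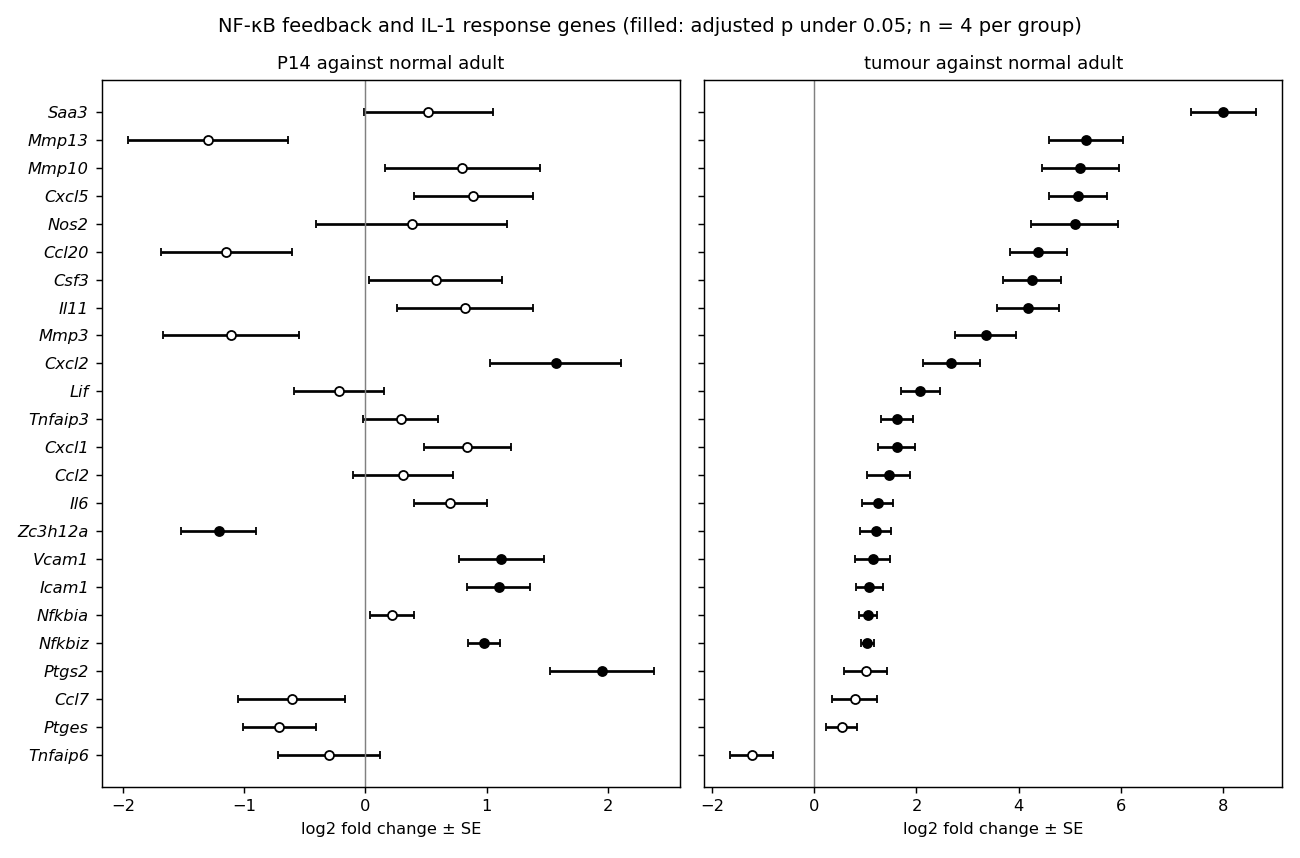
Fitted log2 fold change with its standard error of 24 NF-kB feedback and IL-1 response genes, in P14 and in tumour against normal adult, with filled points for an adjusted p under 0.05 (n = 4 libraries per group). In tumours 20 of 24 points are filled, all to the right of 0 and led by Saa3 at 8.00, and in P14 6 are filled.

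The genes whose log2 CPM followed each member most closely over the 12 libraries were ranked by Pearson r among the 12192 or 12193 other genes that averaged 5 CPM or more. These libraries fall into 3 groups, so r describes the groups as much as the libraries. Il1a was closest to Fam57a, Adam8 and Sox21 (r = 0.98 for each). Il1rn was closest to Tnip3, St14 and Dsg2 (r = 0.995, 0.991 and 0.99), and Il18 to Akr1c12, Rab11fip4 and Fam83e (r = 0.995, 0.994 and 0.992). Il1b was closest to Lilr4b, Ptprc and Gas6 (r = 0.965, 0.875 and 0.874), and Ptprc encodes CD45, a marker that the sort was meant to remove. Il1rl1 was closest to Cemip, Snhg15 and Il11 (r = 0.946, 0.934 and 0.921), Il1r1 to Ptpn1, Nav3 and Ifitm3 (r = 0.975, 0.966 and 0.936) and Il1rap to Nedd4, Pds5b and Fam220a (r = 0.994, 0.991 and 0.985). Il33 was closest to Narfl, 2310011J03Rik and Rbbp5 (r = 0.953, 0.931 and 0.911).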

How the data were processed

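Values are deposited gene counts of 12 libraries, which the authors made with polyA-selected, stranded, single-end reads of 75 bases, per the labels' protocols. The submitters' processing notes name STAR 2.4.2a, edgeR 3.28.0 and GRCm38; the counter, its strand setting and the annotation were not given in the sources used here. Of 19049 gene identifiers, 19012 matched GENCODE M21. Each group has 4 separate mice.

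Differences were tested here with edgeR 4.0.16 in R 4.3.3, on the counts of all 12 libraries (TMM scaling, filterByExpr with a minimum count of 10, quasi-likelihood F test, no covariate), with Benjamini-Hochberg adjustment over 18727 genes. CPM are counts scaled by the TMM-adjusted library totals, and RPKM are CPM per kilobase of merged GENCODE exons. The members and the gene lists were chosen with earlier results of these data known, and support nothing by their choice. Named genes of the wider lists were up to 3 called genes with the smallest p per list and comparison, together with Il1r2, Il1rl2, Il18r1, Il18bp, Il36g and Sigirr; Il36a, Casp4 and the response genes not called in tumours were named after their values were seen. IL-36 genes are listed under older symbols and were matched through RefSeq synonyms. Alternatives used DESeq2 1.42.0, limma 3.58.1, other scalings and filters, 2-group fits and left-out libraries. No pair of libraries was a copy (chi-square per degree of freedom 11.7 or more within groups). The statistics were tested on simulated data.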

Additional observations from a re-analysis of the deposited data

Results flagged for a closer look

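Of 84 groups of 4 libraries, made of 14 genes and 14 marker sums, 13 had 1 library whose distance to its nearest neighbour, as a share of the whole range, was above Dixon's 95% critical value for 4 samples. That critical value assumes normally distributed values, whereas CPM and sums of CPM were used here without a log. All 13 flagged libraries were the highest of their group, and the items are not independent of each other. The count of 13 therefore cannot be set against a chance rate.

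Among the genes, tumour replicate 2 had 235 CPM of Il1b while the other tumours had 1.12 to 11.5 CPM, and P14 replicate 4 had 33.1 CPM of Il1rn while the other P14 libraries had 4.64 to 5.96 CPM. P14 replicate 4 also stood apart in Sigirr, at 5.72 CPM against 1.02 to 1.69 CPM. Il36g was at 0.124 CPM in P14 replicate 2 and at 0 in the other P14 libraries, a difference of a few counts.

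Among the marker sums, tumour replicate 2 had 108 CPM of leukocyte markers (9.92 to 14.9 CPM in the others) and 857 CPM of neutrophil markers (52.3 to 99.7 CPM). P14 replicate 4 had 2498 CPM of columnar epithelial markers (392 to 665 CPM) and 7.92 CPM of T cell and innate lymphoid markers (3.14 to 3.75 CPM). P14 replicate 3 had 294 CPM of endothelial markers (118 to 145 CPM) and 2534 CPM of pericyte markers (1717 to 1827 CPM). Tumour replicate 4 had 15159.6 CPM of squamous epithelial markers (5443 to 6821 CPM). Normal adult replicate 2 had 57.2 CPM of leukocyte markers (43.8 to 44.8 CPM), and normal adult replicate 1 had 37198 CPM of fibroblast markers (29165 to 30222 CPM). The part of these cells in the members' values was not tested.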

How the results depend on the processing

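Counts are given in the order P14 over adult, tumour over adult, tumour over P14. The members called numbered 5, 4 and 6. The wider list gave 26, 28 and 33 and all genes 5789, 3545 and 6930. Leaving out 1 library gave 4 to 6, 4 to 4 and 3 to 6 members, 20 to 29, 23 to 30 and 27 to 35 wider genes, and 4149 to 6705, 2303 to 4169 and 5363 to 7602 genes, with 2303 without normal adult replicate 3 and 3 members without P14 replicate 2. limma voom called 3 members in P14 against normal adult. At an adjusted p under 0.01, 2 members were called in P14 against normal adult and 3 in tumour against P14, with 17 and 18 wider genes against normal adult in P14 and tumour and 3136, 1550 and 4044 genes in all. The labels do not say whether mice with equal title numbers are related, and of 6 same-numbered pairs the 3 with title number 2 had deviations correlated over 0.1 (r = 0.34, 0.45 and 0.43), against -0.38, 0.01 and -0.16 in the other 3, so the number was treated as a name. With the title number as a replicate block, 2 members were called in tumour against normal adult, the wider list gave 17 and 17 against normal adult, and all genes gave 2953, 818 and 3740. With that block the P14 calls of Il1a (-1.65, adjusted p = 0.0544) and Il1r1 (0.50, adjusted p = 0.293) and the tumour calls of Il18 (-1.69, adjusted p = 0.115) and Il1r1 (1.31, adjusted p = 0.0508) against normal adult did not pass. Those of Il1b, Il1r1 and Il1rl1 in tumour against P14 (adjusted p = 0.118, 0.0926 and 0.153) did not either, while Il1rl1 in P14 against normal adult (2.19, adjusted p = 0.027) and Il18 in tumour against P14 (1.72, adjusted p = 0.0449) did, all by edgeR. In the 8 libraries with Xist over 1 CPM, chosen after seeing the data, 0, 2 and 3 members, 0, 10 and 17 wider genes, and 23, 644 and 1999 genes were called, with 2 normal adult, 2 P14 and 4 tumour libraries.

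Signs changed only for differences that were not called. In tumour against normal adult, Il1rap was -0.04 with library totals alone, -0.08 with the replicate block and -0.06 to 0.13 when 1 library was left out. Il1b was -0.34 with voom and -1.29 without tumour replicate 2, with or without P14 replicate 4, in a left-out range of -1.29 to 2.18. Il1rn was -0.01 with voom and -0.36 to 0.44 when 1 library was left out. Il33 was -0.57 to 0.16 when 1 library was left out, and -0.14 against P14 without P14 replicate 4 and tumour replicate 2 together, an exclusion chosen after seeing the data. Il18r1 was 0.40 with the replicate block and -0.70 to 0.07 when 1 library was left out. Il18bp in P14 against normal adult was -0.09 in the 8 libraries with Xist. Where a call or sign depended on the setting, the cause was not tested. DESeq2 gave no adjusted p for Il1b in any comparison, or for Il18r1 or Il36g in some, so those values were not compared. Il1a in P14 rests on 9 to 35 counts a library, which limits its precision.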
